A study of Mus musculus with 18 samples.

Results

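The gene models described here lie in the major histocompatibility complex (MHC) of the mouse on chromosome 17, between 34120000 and 36250000 on build mm9. They were chosen by position and depth alone: each gene model had to lie wholly inside this interval and to hold at least 20 counts summed over the 18 libraries. Of the 27473 gene models in the table, 136 lie inside the interval and 113 met the count minimum. The other 23 had totals of 18 or less, and 6 of those had 0 counts, while the lowest totals among the 113 were 20 and 23. A further 4 gene models reach across an end of the interval and were not taken.

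RNA was sequenced from 3T3-L1 cells at passage 15, a mouse fibroblast line differentiated into adipocytes in culture, in 6 groups of 3 libraries. All cells carried a lentiviral vector, added to the mature adipocytes for 6 days. In the overexpression arm, cells labelled 2D (Irf3_2D, overexpression of Irf3) were set against cells with a green fluorescent protein vector (EGFP). In the hairpin arm, cells with a hairpin against Irf3 (shIrf3) or a control hairpin (shLuc) were compared without and with lipopolysaccharide (LPS). The labels state 6 further days of LPS, with the medium changed every other day, for the knockdown cells, and give no duration for the control cells. They do not say what 2D stands for, which promoter drove the vectors, or whether replicate libraries are separate cultures. The p-values below therefore speak of the spread from library to library, and that spread may be technical. One line at one passage was used. It is not given whether cells without LPS were kept for as long. An effect of LPS and one of longer culture therefore cannot be told apart. Nor can an effect of the Irf3 hairpin under LPS be told apart from a difference in LPS duration between the hairpins. The same holds for a difference between the hairpins in the response to LPS.

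The MHC is among the densest stretches of immune genes in the mammalian genome. In the mouse, textbook order runs from the class I gene H2-K1 through the class II genes, among which lie the genes of the TAP peptide transporter and of the inducible proteasome subunits, to the class III genes, with complement components C4 and factor B and the cytokine Tnf, and then to H2-D1 and the H2-Q and H2-T class I families. Class I molecules show peptides from inside the cell to cytotoxic T cells, and class II molecules show peptides taken up from outside to helper T cells. Interferons raise class I genes and their peptide supply in most cell types. IRF3 is a transcription factor that is activated below Toll-like receptor 4, the receptor of LPS, and switches on type I interferon.

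Gene names could not be attached to single gene models. The table gives UCSC known-gene identifiers and mm9 positions, the annotation at hand is of another build, and 0 of the 27473 identifiers occurred in its name tables. The names above are therefore background on the region and not on any gene model below. Without names, the level of the targeted gene, Irf3, and markers of adipocytes or other cell types are not reported here, no sequence is shown, and whether an altered level reflects fewer cells of a type or less RNA per cell cannot be told apart. Gene models are given by identifier or by position, all on chromosome 17.

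Total counts per library ran from 22143302 to 34368259, and the 113 gene models together held 0.395% to 0.777% of them. Single gene models ranged from 20 to 495950 counts over all libraries, from 1 to 67 exons, and from 58 to 10756 bases of exon. The spans of 39 overlap another gene model of the table, and 8 list exons on both strands, so their reads could be shared or lost in counting. Mitochondrial gene models took 14.2% of the counts of shLuc replicate 1 and at most 7.17% in each other library. Set against the replicates of its group over all gene models, shLuc replicate 1 gave chi-square values per degree of freedom of 350 and 199 and Irf3_2D replicate 2 gave 112 and 91.7, while the other 14 pairs of replicates gave 3.38 to 55.9, so these libraries stood apart from their groups. Without each of them, only the counts of gene models called and the fold changes of those named per comparison, as set out under processing, were refitted. The larger changes in these counts, and the calls that ended, are given below. Summed levels, medians, shares called in both of a pair of comparisons, values of neighbouring gene models and correlations were not worked out without them.

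Levels within the region spanned several orders of magnitude. Counts per 1000000 counts (CPM, scaled by the TMM factors of each arm) averaged over the 18 libraries were under 1 for 27 gene models, from 1 to under 10 for 29, from 10 to under 100 for 46 and at least 100 for 11. Per kilobase of exon the median was 5.23 CPM per kb. The highest level was that of the 8-exon gene model at 35400039 to 35462354, with 512.9 CPM per kb. The next were the gene models at 35970865 to 35975246 (182 CPM per kb, 4 exons), 34132957 to 34137278 (155 CPM per kb, 5 exons), 35187188 to 35195664 (150.3 CPM per kb, 6 exons) and 34162978 to 34168635 (75.1 CPM per kb, 12 exons). In CPM, the gene model at 35400039 alone made up 18.9% of the mean summed level of the 113.

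The summed level of the region was higher in every Irf3_2D library than in any EGFP library. It was 5915, 5044 and 5129 CPM in EGFP replicates 1 to 3 and 6457, 8243 and 7129 CPM in Irf3_2D replicates 1 to 3. In the hairpin arm it ran from 4502 to 5173 CPM in shLuc, from 4657 to 4844 in shIrf3, from 5241 to 5368 in shLuc_LPS and from 4814 to 4936 in shIrf3_LPS. The 3 shLuc_LPS libraries lay above the other 9, and shLuc and shIrf3 overlapped. These sums are a description, and a few abundant gene models dominate them.

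LPS in cells with the control hairpin raised 17 of the 97 MHC region gene models tested (17.5%) and lowered 4 (4.12%), where 4.27% of all 14970 gene models tested were higher and 4.45% lower. Values after ± in a log2 fold change are standard errors, and calls are edgeR quasi-likelihood tests with a Benjamini-Hochberg adjusted p under 0.05, and 16 of the 113 had too few counts to be tested in this arm. The log2 fold changes of those that rose ran from 0.47 to 3.42 with a median of 0.68, and those of the 4 that fell from -0.74 to -0.29. Over all 97 the median log2 fold change was 0.07, against -0.01 over all gene models, and 72 of the 97 values were above 0. Of the called changes, 6 were of at least 2-fold. The shares of values above 0 and of called changes of at least 2-fold over all gene models were not worked out. Gene models that overlap are counted separately here.

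The gene model uc008cdy.2 (34993319 to 34999459, minus strand, 18 exons) had the steepest rise. Its level was 7.29, 6.95 and 5.03 CPM in the shLuc libraries and 59.1, 74.5 and 73.4 CPM in the shLuc_LPS libraries. The groups were far apart, and the log2 fold change was 3.42 ± 0.12 (edgeR adjusted p = 6.28e-12), or 10.7-fold. With the Irf3 hairpin it rose from 5.65, 6.25 and 6.21 CPM to 43.4, 47.3 and 47.9 CPM (log2 fold change 2.93 ± 0.12, edgeR adjusted p = 5.77e-11). The 3 shIrf3_LPS libraries thus lay above all libraries without LPS and below all 3 shLuc_LPS libraries.

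The 41-exon gene model uc008cdn.1 (34865326 to 34880842, minus strand) followed. It was at 20.7, 30.4 and 27.4 CPM in shLuc and at 105.5, 125.2 and 111.7 CPM in shLuc_LPS (log2 fold change 2.13 ± 0.19, edgeR adjusted p = 2.98e-05). Without LPS its shIrf3 libraries, at 5.74, 9.88 and 11.1 CPM, were all below the shLuc libraries, and with LPS they reached 40.6, 45.3 and 39.9 CPM, a log2 fold change of 2.23 ± 0.20 for LPS (edgeR adjusted p = 4.76e-05). LPS thus raised it 4.37-fold with the control hairpin and 4.69-fold with the Irf3 hairpin, from starting levels that did not overlap. The gene model uc008cdp.1 begins at the same base and runs to 34960399 with 50 exons, at a lower level, from 1.98 to 2.88 CPM in shLuc and from 8.03 to 9.28 CPM in shLuc_LPS. Reads in exons that both share could be split or lost.

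**Figure D1:**
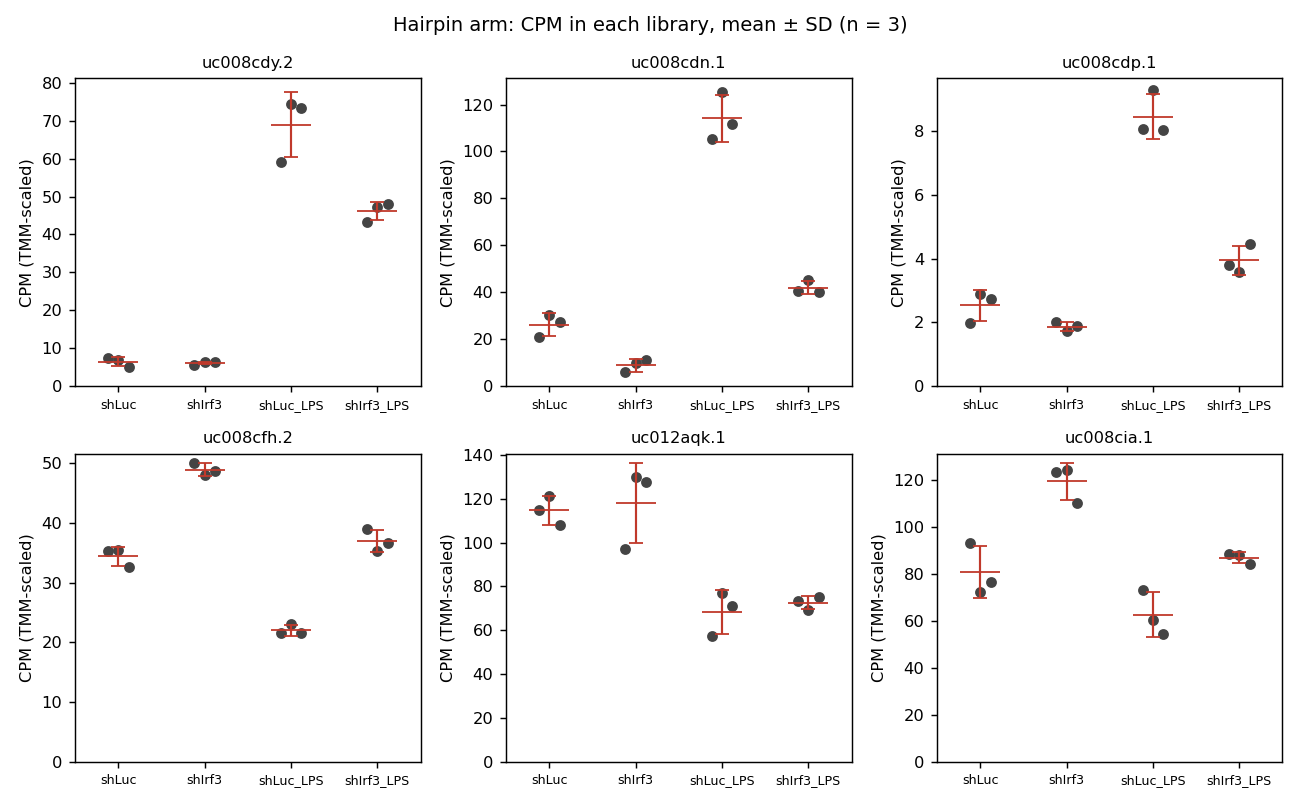
CPM (vertical axes, from 0, TMM-scaled) of 6 gene models in the 12 libraries of the hairpin arm, by group on the horizontal axes, with each library as a point and the mean ± SD (n = 3) in red. For uc008cdy.2 and uc008cdn.1 the LPS groups lie above the groups without LPS and shIrf3_LPS lies below shLuc_LPS, whereas for uc008cfh.2 the shIrf3 groups lie above the shLuc groups at each LPS state.

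Gene models raised by LPS were found in each of the 3 blocks of the interval. Of those called higher with the control hairpin, 5 start between 34132957 and 34491767, 5 between 34624351 and 35340110, and 7 between 35357120 and 36217134, among 15, 42 and 40 tested. The first gene model of the interval, at 34132957 to 34137278, was at 205.3, 291.8 and 204.1 CPM in shLuc and at 357, 360.2 and 368 CPM in shLuc_LPS (log2 fold change 0.63 ± 0.11, edgeR adjusted p = 0.00119). The most abundant, at 35400039 to 35462354, was at 567.5, 884 and 625 CPM in shLuc and at 989, 934 and 947 CPM in shLuc_LPS (log2 fold change 0.47 ± 0.12, edgeR adjusted p = 0.0221). In both, no shLuc library reached the lowest shLuc_LPS library, and shLuc replicate 2 was the highest of its group. In the distal block, the 2-exon gene model at 35958658 to 35959856 was at 9.36, 10.7 and 10.8 CPM without LPS and at 19.4, 18.2 and 18.1 CPM with it (edgeR adjusted p = 6.84e-06). Of the gene models tested, its pattern over the 12 libraries was the most like that of uc008cdy.2 (Pearson's r = 0.949 over 12 libraries of 4 groups, on log2(CPM + 1), given as a description).

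The 4 gene models that LPS lowered with the control hairpin were also the 4 lowered with the Irf3 hairpin. The largest decrease was in the 37-exon gene model uc012aqk.1 (34807480 to 34856760, plus strand), the next neighbour of uc008cdn.1. It was at 115.1, 121.3 and 107.9 CPM in shLuc and at 57.4, 77.0 and 71.1 CPM in shLuc_LPS (log2 fold change -0.74 ± 0.11, edgeR adjusted p = 0.000563). With the Irf3 hairpin it was at 97.0, 129.8 and 127.5 CPM and, with LPS, at 73.1, 69.3 and 75.2 CPM (log2 fold change -0.70 ± 0.11, edgeR adjusted p = 0.00107). The 2 hairpins gave overlapping levels at each LPS state. The gene model uc008cfh.2 (35195980 to 35199044, plus strand, 7 exons) was at 35.2, 35.4 and 32.6 CPM in shLuc and at 21.5, 23.0 and 21.5 CPM in shLuc_LPS (log2 fold change -0.65 ± 0.07, edgeR adjusted p = 7.49e-06).

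In cells with the Irf3 hairpin, LPS raised 18 of the 97 gene models tested (18.6%) and lowered 4 (4.12%), where 4.17% of all gene models were higher and 3.84% lower. Those that rose had a median log2 fold change of 0.82 and those that fell one of -0.43, and over all 97 the median was 0.05, against 0.00 over all gene models. The mitochondrial share was 6.53% to 7.17% in shIrf3 and, without overlap, 5.82% to 6.39% in shIrf3_LPS, and its part in the result was not tested. The second largest decrease was in the 2-exon gene model uc008cia.1 (35689073 to 35694125, plus strand), from 123.6, 124.4 and 110.3 CPM to 88.4, 88.2 and 84.4 CPM (log2 fold change -0.46 ± 0.10, edgeR adjusted p = 0.0117). The smallest was in the abundant gene model at 35970865, with a log2 fold change of -0.31 ± 0.07 (edgeR adjusted p = 0.00751).

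The LPS responses with the 2 hairpins share no library. Higher in both were 15 gene models, which are 88.2% of the list of the control hairpin and 83.3% of that of the Irf3 hairpin, where over all gene models these shares were 62.6% and 64.1%. Lower in both were 4, or 100% of each list, where over all gene models the shares were 52.3% and 60.5%, and 0 were called in opposite directions. The test of the difference between the responses called 0 of the 97 gene models, as it called 0% of all 14970, with 11 of the 97 (11.3%, against 5.66% of all) at an unadjusted p under 0.05 (6 of them with a difference, shIrf3 minus shLuc, below 0) and a lowest adjusted p of 0.769 in edgeR. DESeq2 also called 0 of them. For uc008cdy.2 the difference in log2 fold change was -0.49 ± 0.17 (unadjusted p = 0.0113, edgeR adjusted p = 0.769). For uc008cdn.1 the difference was 0.10 ± 0.27 (edgeR adjusted p = 0.997).

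**Figure D2:**
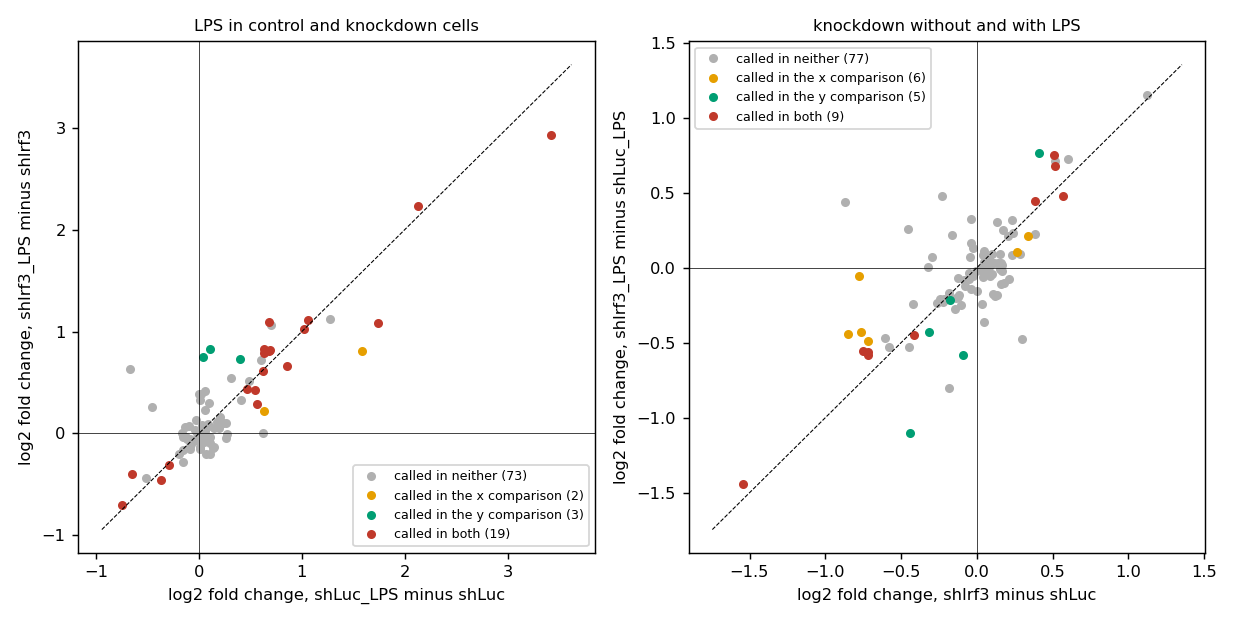
Log2 fold changes of the 97 tested gene models, with the response to LPS in shLuc against that in shIrf3 on the left and the effect of the Irf3 hairpin without against with LPS on the right; the dashed line marks equal values, and colours show where a gene model was called. On the left 19 points were called in both comparisons, led by uc008cdy.2 at 3.42 and 2.93, and on the right 9 were, with uc008cdn.1 lowest at -1.55 and -1.44.

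Knockdown of Irf3 without LPS lowered 9 of the 97 gene models tested (9.28%), where 3.91% of all gene models were lower, and raised 6 (6.19%), where 4.65% were higher. The log2 fold changes ran from -1.55 to -0.42 among those that fell, with a median of -0.75, and from 0.26 to 0.57 among those that rose, with a median of 0.45. Over all 97 the median was 0.02, against -0.02 over all gene models. The highest of the 97 values, 1.12, was not called. Of the called changes, 1 reached 2-fold, and again the share of such changes over all gene models was not worked out.

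That change was in uc008cdn.1, whose values are given above, with a log2 fold change of -1.55 ± 0.21 (edgeR adjusted p = 0.0016). Of the other 8 gene models lowered, 2 (that at 34132957 and uc008cbs.1) were among the 15 tested that start at or before 34491767. The other 6 start after 35357120, in the distal block with 40 tested, and 4 of these 6 end between 35462044 and 35611508. The first gene model, at 34132957, was at 129.3, 149 and 138.7 CPM in shIrf3, below each shLuc library, with a log2 fold change of -0.75 ± 0.11 (edgeR adjusted p = 0.000852). The most abundant, at 35400039, was at 510.8, 549 and 494 CPM, below each shLuc library, with a log2 fold change of -0.42 ± 0.12 (edgeR adjusted p = 0.043).

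At the distal end, the 6-exon gene model uc012asc.1 (36217134 to 36221194, minus strand, overlapping 2 other gene models) was at 7.32, 11.3 and 9.10 CPM in shLuc and at 3.91, 5.96 and 6.36 CPM in shIrf3. The groups did not overlap, which was a condition for naming it here, and the log2 fold change was -0.76 ± 0.17 (edgeR adjusted p = 0.01). With LPS it was at 12.7, 11.4 and 12.4 CPM in shLuc_LPS and at 9.56, 8.78 and 8.70 CPM in shIrf3_LPS, a log2 fold change of -0.43 ± 0.16 that did not pass the test (edgeR adjusted p = 0.111).

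Of the 6 gene models raised by knockdown, 4 were among the 42 tested that start between 34624351 and 35340110. Another 2 were among the 40 tested in the distal block, and 0 among the 15 tested in the first block. The gene model uc008cia.1 was at 93.3, 72.4 and 76.4 CPM in shLuc and, as above, from 110.3 to 124.4 CPM in shIrf3 (log2 fold change 0.57 ± 0.10, edgeR adjusted p = 0.00423). The single-exon gene model uc008ceo.1 (35093374 to 35096183, minus strand) was at 8.75, 9.59 and 6.89 CPM in shLuc and at 12.7, 11.6 and 11.9 CPM in shIrf3 (log2 fold change 0.51 ± 0.14, edgeR adjusted p = 0.0266). The neighbouring gene models at 35187188 to 35195664 and uc008cfh.2 rose as well, with log2 fold changes of 0.38 ± 0.08 and 0.51 ± 0.07 (edgeR adjusted p = 0.00548 and 0.000327).

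These knockdown counts depended on single libraries. For these and the later alternative fits, the share of all gene models called was not worked out. A change in the MHC region gene models and one over all gene models therefore cannot be told apart. Called lower were 3 gene models without shIrf3 replicate 1. Without shLuc replicate 1, which stood apart from its group, 13 were lower and 13 higher. Called higher were 13 without shLuc replicate 2, and 3 without shLuc replicate 3, shIrf3 replicate 1 or shIrf3 replicate 2. When only the 6 libraries compared were fitted, 3 were higher and 2 lower, and with all 18 libraries in one fit 1 was higher and 4 lower. The call of uc008cdn.1 held in every alternative run, at log2 fold changes from -1.73 to -1.32, while that of uc008ceo.1 ended without any one shIrf3 library, without shLuc replicate 3, with the 6 libraries alone and with all 18. The calls of uc012asc.1 (without shIrf3 replicate 1, and with the 6 libraries alone) and of uc008cia.1 (with all 18 libraries) also ended. The mitochondrial share of the shIrf3 libraries was 6.53% to 7.17%. It was higher in shLuc replicate 1, at 14.2%, and lower in shLuc replicates 2 and 3, at 2.88% and 5.19%. Its part in the result was not tested.

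**Figure D3:**
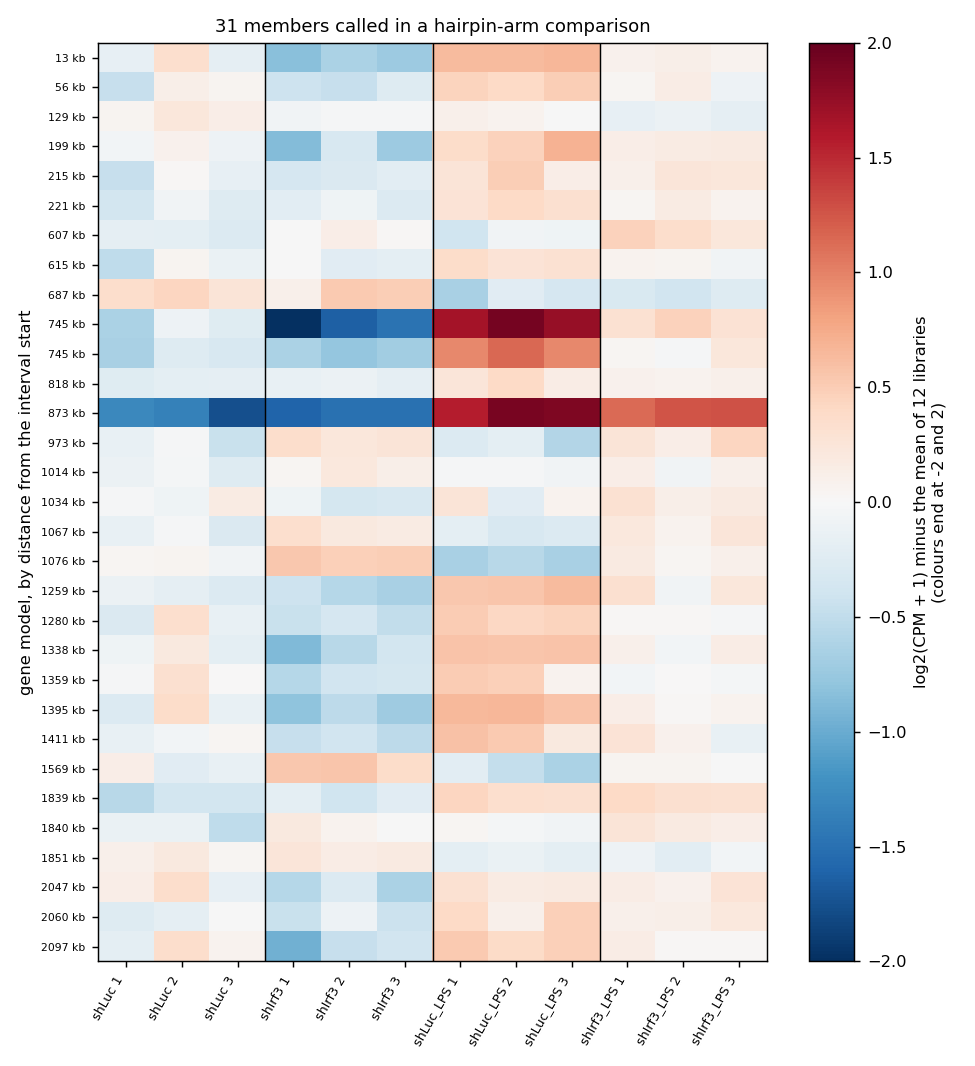
Levels of the 31 gene models called in at least 1 of the 4 hairpin-arm comparisons, as log2(CPM + 1) minus the mean of the 12 libraries (colour), with one row per gene model ordered by its distance in kb from the start of the interval and one column per library. The strongest contrast is in the rows at 745 kb and 873 kb, uc008cdn.1, uc008cdp.1 and uc008cdy.2, where the shLuc_LPS libraries are highest.

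Under LPS, knockdown lowered 9 of the 97 gene models tested (9.28%), where 3.31% of all gene models were lower, and raised 5 (5.15%), where 4.9% were higher. The median log2 fold change was -0.56 among those lowered and 0.68 among those raised, and over all 97 it was -0.04, against 0.00 over all gene models. The mitochondrial share separated these groups, at 4.21% to 4.52% in shLuc_LPS and 5.82% to 6.39% in shIrf3_LPS, and its part in the result was not tested. In the middle of the interval, uc008cdn.1 differed by -1.44 ± 0.18 (log2, edgeR adjusted p = 0.00109). Its partner uc008cdp.1 was at 8.06, 9.28 and 8.03 CPM in shLuc_LPS and at 3.79, 3.58 and 4.46 CPM in shIrf3_LPS (log2 fold change -1.10 ± 0.14, edgeR adjusted p = 0.000271). The gene model uc008cdy.2 differed by -0.58 ± 0.10 (edgeR adjusted p = 0.00275), whereas without LPS its log2 fold change was -0.09 ± 0.13 and its groups overlapped.

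The first gene model of the interval was at 357, 360.2 and 368 CPM in shLuc_LPS and at 245, 250.6 and 243 CPM in shIrf3_LPS (log2 fold change -0.55 ± 0.11, edgeR adjusted p = 0.00531). The most abundant gene model was at 709.7, 707 and 687 CPM in shIrf3_LPS, below each shLuc_LPS library, with a log2 fold change of -0.45 ± 0.12 (edgeR adjusted p = 0.031). Among those raised, uc008cfh.2 was at 39.0, 35.2 and 36.7 CPM in shIrf3_LPS against 21.5 to 23.0 CPM in shLuc_LPS (log2 fold change 0.75 ± 0.07, edgeR adjusted p = 9.1e-06). The gene model uc008ceo.1 was at 7.92, 8.45 and 6.21 CPM in shLuc_LPS and at 11.8, 10.8 and 13.6 CPM in shIrf3_LPS (log2 fold change 0.68 ± 0.14, edgeR adjusted p = 0.00579).

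The knockdown comparisons without and with LPS share no library. Lower in both were 5 gene models, or 55.6% of each list, where over all gene models the shares were 44.1% and 52.1%. Higher in both were 4, or 66.7% of the list without LPS and 80% of that with LPS, where over all gene models the shares were 55.5% and 52.7%, and 0 were called in opposite directions. The number lowered under LPS was 4 when any of 5 libraries was left out (shLuc_LPS replicates 1 and 2 and shIrf3_LPS replicates 1, 2 and 3), and the number raised was 3 without shIrf3_LPS replicate 1. Without shLuc replicate 1 or 2, which are in the fit but not among the libraries compared here, 15 and 16 were lower and 8 and 8 higher. When only the 6 libraries compared were fitted, 20 were lower and 10 higher, and with all 18 libraries in one fit 2 were lower and 3 higher. The calls of uc008cdn.1, uc008cdp.1, uc008cfh.2 and uc008ceo.1 held in every alternative run.

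The counts of the LPS comparisons moved as well. With the control hairpin 11 were higher with the 6 libraries alone and with all 18 in one fit, and 2 were lower with the 6 libraries alone, with library totals as the only scaling and without shLuc_LPS replicate 3. With the Irf3 hairpin 10 were higher without shIrf3 replicate 1 or shIrf3_LPS replicate 1, 11 without shIrf3_LPS replicate 2 and 8 with all 18 libraries, and 8 were lower with the 6 libraries alone. The calls of uc008cdy.2, uc008cdn.1, uc012aqk.1 and, with the control hairpin, uc008cfh.2 held in every alternative. The call of uc008cia.1 with the Irf3 hairpin ended without shIrf3 replicate 1, shIrf3 replicate 2 or shIrf3_LPS replicate 3 and with all 18 libraries.

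Of the 97 gene models tested in the hairpin arm, 66 (68%) were called in none of its 4 comparisons between groups, against 80.6% of all gene models tested. The values of 2 gene models not given so far, singled out after they were seen, follow. The gene model at 35457503 to 35462044 was at 4.46, 5.69 and 4.11 CPM in shLuc, at 2.16, 2.98 and 3.50 CPM in shIrf3, at 7.65, 7.59 and 7.65 CPM in shLuc_LPS and at 5.22, 4.59 and 5.46 CPM in shIrf3_LPS. The gene model at 35515007 to 35521619 was at 19.1, 30.5 and 21.2 CPM, at 13.0, 15.9 and 13.9 CPM, at 37.2, 37.7 and 35.1 CPM and at 25.7, 23.9 and 24.7 CPM in the same order of groups. In both, the shIrf3 libraries were the lowest 3 and the shLuc_LPS libraries the highest 3. Comparisons that have a group in common share its libraries, so the calls of a gene model in them are not separate results.

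Among the gene models called in fewer comparisons, the 67-exon gene model at 34176382 to 34203187 was at 17.3, 26.3 and 25.3 CPM in shLuc and at 33.5, 32.3 and 34.5 CPM in shLuc_LPS (log2 fold change 0.54 ± 0.12, edgeR adjusted p = 0.01). At the distal end, the gene model at 36166922 to 36248369, whose span overlaps 5 others, was at 4.50, 5.34 and 3.47 CPM in shLuc and at 2.37, 3.14 and 2.22 CPM in shIrf3 (log2 fold change -0.77 ± 0.18, edgeR adjusted p = 0.0118). With LPS its shLuc_LPS libraries, from 4.58 to 5.14 CPM, and its shIrf3_LPS libraries, from 4.28 to 5.04 CPM, overlapped. Its difference in LPS response was 0.72 ± 0.24 (unadjusted p = 0.00849), which did not pass the adjusted test in edgeR.

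Overexpression of Irf3 was compared with the EGFP vector in a fit of its own. Of the 92 MHC region gene models tested, 4 were higher (4.35%) and 0 lower, where 0.811% of all 13931 gene models tested were higher and 0.639% lower. At an unadjusted p under 0.05 there were 23 of the 92 (25%) in either direction, against 10.9% of all gene models tested. The median log2 fold change was 0.13, against 0.02 over all gene models, and 69 of the 92 values were above 0, while 21 of the 113 were not tested. The share of values above 0 over all gene models was not worked out, and overlapping gene models are again counted separately.

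The first 2 by size were neighbours. The 6-exon gene model uc008cbs.1 (34319044 to 34324275, minus strand) was at 4.98, 1.63 and 1.30 CPM in EGFP and at 15.1, 10.9 and 12.5 CPM in Irf3_2D (log2 fold change 2.29 ± 0.43, edgeR adjusted p = 0.039), or 4.89-fold. The 8-exon gene model uc012apt.1 begins just beyond its 5′ end, on the other strand (34324501 to 34334170) and was at 46.1, 22.7 and 25.6 CPM in EGFP and at 86.8, 135.5 and 92.9 CPM in Irf3_2D (log2 fold change 1.74 ± 0.28, edgeR adjusted p = 0.0227). In both the groups did not overlap, which was a condition for naming them here, and EGFP replicate 1 was the highest of its group.

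The next 2 gene models along the chromosome had values in the same direction that did not pass the test. At 34335140 to 34338399 the level was 1.39 ± 0.528 CPM in EGFP and 4.68 ± 1.83 in Irf3_2D (SD, n = 3), with a log2 fold change of 1.74 ± 0.35 (edgeR adjusted p = 0.0519). At 34341424 to 34353266 it was 32.9 ± 8.6 and 57.6 ± 2.66 CPM, with a log2 fold change of 0.81 ± 0.18 (edgeR adjusted p = 0.0729). This stretch of 4 gene models, from 34319044 to 34353266, was singled out after its values were seen. With LPS, 3 of the 4 rose with each hairpin, with log2 fold changes over the 4 from 0.48 to 1.02 in shLuc and from 0.29 to 1.09 in shIrf3. For knockdown 1 of the 4, uc008cbs.1, was called lower without LPS, over a range from -0.85 to 0.03, and 0 were called under LPS, over a range from -0.44 to -0.21.

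The other 2 gene models called in the overexpression arm lay in the distal block. That at 35515007 to 35521619, with exons on both strands, was at 42.8, 30.4 and 28.1 CPM in EGFP and at 55.0, 81.1 and 69.5 CPM in Irf3_2D (log2 fold change 1.02 ± 0.20, edgeR adjusted p = 0.0423). That at 36142640 to 36157505 was at 8.14, 3.63 and 4.94 CPM and at 14.6, 16.5 and 14.9 CPM (log2 fold change 1.46 ± 0.27, edgeR adjusted p = 0.0353). In these too no Irf3_2D library overlapped the EGFP libraries.

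**Figure D4:**
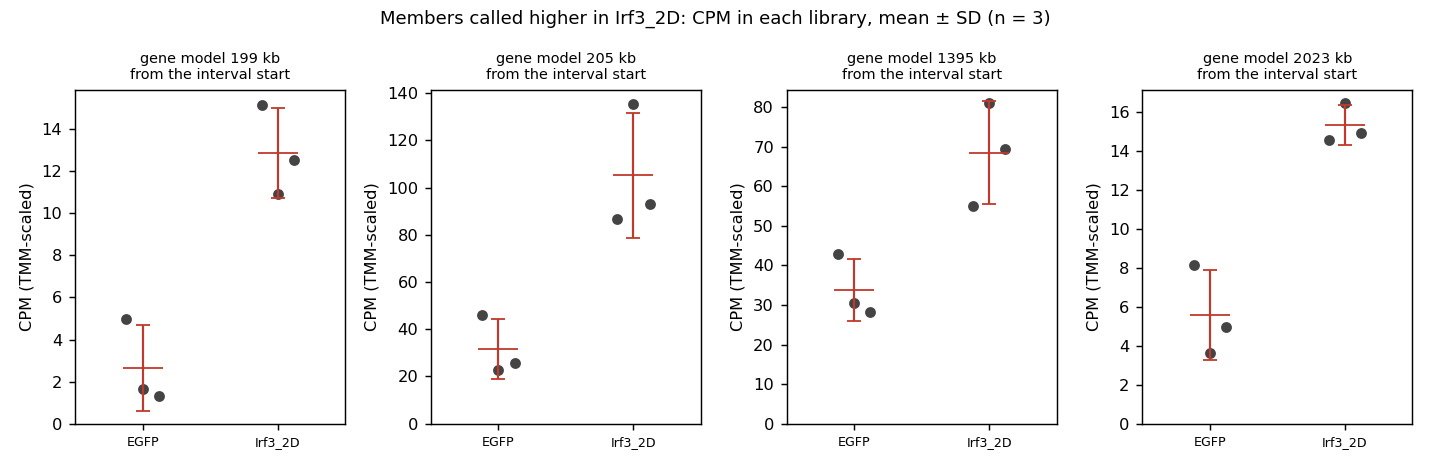
CPM (vertical axes, from 0, TMM-scaled) of the 4 gene models called higher in Irf3_2D, in the 3 EGFP and 3 Irf3_2D libraries, with each library as a point and the mean ± SD (n = 3) in red; panels are titled by distance from the start of the interval. The Irf3_2D points lie above the EGFP points in all 4 panels, from 199 kb (uc008cbs.1) to 2023 kb.

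Around the gene model at 35515007, values above 0 for overexpression stood side by side, most without passing the test. The 8 gene models that end between 35462044 and 35611508, a stretch also singled out after its values were seen, had log2 fold changes from 0.51 to 1.16 for overexpression, of which 1 passed. For knockdown without LPS the same 8 ran from -0.72 to -0.23, of which 4 were called lower, while under LPS they ran from -0.58 to 0.48, of which 3 were called lower. With LPS, 5 of the 8 were called higher for each hairpin, over ranges from -0.46 to 1.06 in shLuc and from 0.26 to 1.11 in shIrf3. The knockdown and LPS comparisons share the shLuc or the shIrf3 libraries. The most abundant of them, at 35400039, was at 1256, 966 and 1058 CPM in EGFP and at 1662, 2809 and 2005 CPM in Irf3_2D (log2 fold change 0.98 ± 0.21, edgeR adjusted p = 0.0712). Some of these gene models overlap one another, so they are not 8 separate measurements. Class I families hold near-identical copies between which reads can be split, but without names it is not known whether these gene models belong to them.

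Of the 15 gene models raised by LPS with both hairpins, which share no library with the overexpression arm, all 15 were tested there and 14 (93.3%) had a log2 fold change above 0, against 173 of 378 (45.8%) among all gene models raised by LPS with both hairpins and tested there. Their median was 0.83, over a range from -0.10 to 2.29, against a median of -0.05 for the 378, and 2 of the 15 (13.3%) and 20 of the 378 (5.29%) were called higher. The 15 include overlapping and neighbouring gene models. The gene model uc008cdy.2 was at 13.3, 7.85 and 10.1 CPM in EGFP and at 19.5, 26.2 and 18.9 CPM in Irf3_2D, a log2 fold change of 1.05 ± 0.22 that did not pass the test (edgeR adjusted p = 0.0589). The gene model uc008cdn.1 was at 16.6, 18.4 and 11.4 CPM and at 23.9, 21.8 and 19.2 CPM (log2 fold change 0.48 ± 0.19, edgeR adjusted p = 0.38). The gene model uc008cia.1 was at 35.3, 13.9 and 15.2 CPM in EGFP and at 77.1, 14.9 and 68.2 CPM in Irf3_2D, so that Irf3_2D replicate 2 lay with EGFP (edgeR adjusted p = 0.495).

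The overexpression counts rested on single libraries. Without Irf3_2D replicate 2, 13 gene models were called higher and 1 lower, and without EGFP replicate 1, 8 were higher. Without Irf3_2D replicate 1, Irf3_2D replicate 3, EGFP replicate 2 or EGFP replicate 3, 0 were called. DESeq2 called 13 higher, edgeR with no low-count filter 10, and edgeR with all 18 libraries in one fit 18. Here too the share over all gene models in each fit was not worked out. The calls of uc008cbs.1 and uc012apt.1 ended without any one Irf3_2D library and without EGFP replicate 2 or 3, and that of uc008cbs.1 also with library totals only (edgeR adjusted p = 0.0589) and with no low-count filter (edgeR adjusted p = 0.0934), at log2 fold changes between 1.97 and 3.13 and between 1.51 and 2.12 over the alternatives.

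**Figure D5:**
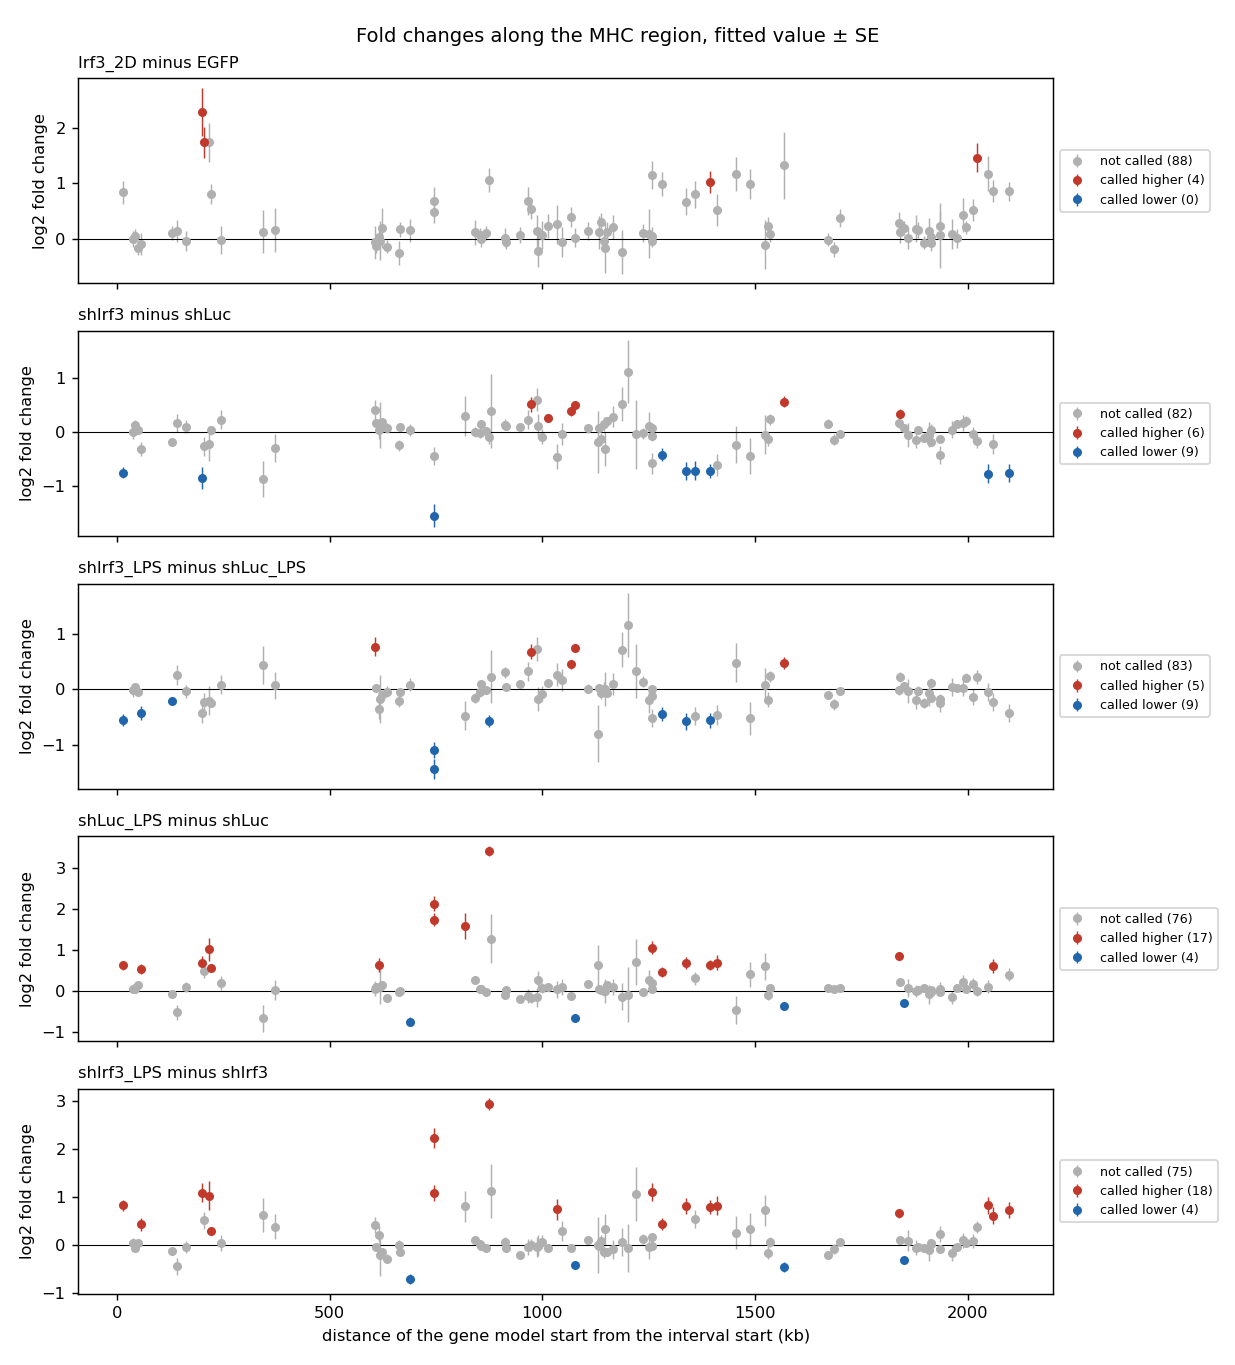
Fitted log2 fold change ± SE (vertical axes) of each tested gene model against the distance of its start from the start of the interval in kb (horizontal axis), in 5 panels for the 5 comparisons, with called gene models in red (higher) or blue (lower). The highest point with LPS is uc008cdy.2 at 873 kb, and the highest in Irf3_2D is uc008cbs.1 at 199 kb, where the LPS panels show smaller values.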

How the data were processed

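Reads were counted by the authors with featureCounts 1.4.6 after alignment tools that include TopHat2 2.0.14, on build mm9, according to the submitters' processing notes, which also name SAMtools 0.1.19, Picard 2.2.4 and edgeR. Their settings were not at hand. Libraries were made from 70 ng of ribosome-depleted total RNA with a TruSeq v2 kit, per the labels' protocols, and do not mark strand. The deposited values are raw counts per gene model.

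All gene models of the table were fitted with edgeR 4.0.16 (glmQLFit with robust estimation, glmQLFTest, R 4.3.3) after filterByExpr and TMM scaling, the overexpression arm from 6 libraries and the hairpin arm from 12, with Benjamini-Hochberg adjustment over all tested and a threshold of 0.05. Standard errors come from the log2 fold change and the F statistic (its size over the root of F). The fit was tested on simulated data. Alternatives were DESeq2 1.42.0, RLE factors, library totals, 2 other filters, a replicate block, all 18 libraries in one fit, the 6 libraries compared, and leaving out each library. All 18 replicate pairs differed beyond sampling noise, with chi-square values of 3.38 to 350 per degree of freedom.

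Named by identifier, per comparison and direction, are the 2 called members of largest fold change whose groups do not overlap and whose higher group averages 5 CPM or more. The lists of pathways and cell type markers need names and gave no result. Members, lists and tests were chosen with earlier results of these data known.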

Additional observations from a re-analysis of the deposited data

How the results depend on the processing

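Over 346 values of the named gene models under the alternatives, 346 kept their direction and 25 lost their call. The share of all gene models called under each alternative was not worked out. Counts of MHC region gene models called changed by over 1.5 times as follows. For overexpression (4 higher), 10 were higher with no low-count filter, 13 in DESeq2 and 18 with all 18 libraries in one fit. With all 18 libraries, knockdown had 1 higher and 4 lower, knockdown under LPS 3 and 2, LPS in control 11 higher and LPS in knockdown 8 higher. With the 6 libraries compared alone, knockdown had 3 higher and 2 lower, knockdown under LPS 10 and 20, LPS in control 11 and 2, and LPS in knockdown 8 lower. With library totals only, LPS in control had 2 lower. Leaving out each library in turn, overexpression had from 0 to 13 higher and from 0 to 1 lower, knockdown from 3 to 13 higher and from 3 to 13 lower, knockdown under LPS from 3 to 8 higher and from 4 to 16 lower, LPS in control from 12 to 22 higher and from 2 to 6 lower, and LPS in knockdown from 10 to 21 higher and from 3 to 6 lower. The interaction stayed at 0. Fewer libraries enter the fits with the 6 libraries alone and those with a library left out. The cause of the changed counts was not tested. No label says what the replicate numbers mark. Deviations of same-numbered libraries from their group means had correlations from -0.415 to 0.419, over 0.1 in 3 of 15 cases. Whether the numbers mark pairs cannot be told from these. With the replicate number as a block, 6 were higher for overexpression, 6 higher and 9 lower for knockdown, 6 and 10 under LPS, 18 and 4 for LPS in control and 18 and 4 for LPS in knockdown. Of the 113 gene models, 21 in the overexpression arm and 16 in the hairpin arm had too few counts to test.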
